A study of Homo sapiens with 8 samples.

Results

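Nascent RNA of 9 genes of acetyl-CoA supply and fatty acid synthesis was followed in 8 factory-seq libraries from 2 human colorectal cancer cell lines. The genes (ACSS2, ACLY, ACACA, FASN, SCD, ELOVL6, FADS1, FADS2 and ACSL3) were taken by symbol from the 18638 gene models of the count tables, and each was found once in both tables. They were chosen from the HCT116 difference in ACSS2, known from an earlier look at the same libraries, together with other enzymes of the pathway, so the HCT116 values of these genes are given as a description without p-values.

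Factory-seq enriches RNA that is still being made: DNase I removes most chromatin from isolated nuclei, and caspases then free the transcription sites with the RNA they hold. DLD-1 cells (DLD-1-mAID-mClover-POLR2A with Tet-OsTIR1) carry a degron on RPB1, the catalytic subunit of polymerase II, and were sampled as untreated control and after auxin (500 µM for 14 h, following 24 h of doxycycline to switch on the TIR1 ligase). HCT116 cells carry a degron on DNA topoisomerase 2A (TOP2A-mAID) and were sampled as control and as a TOP2B-/- line on the same TOP2A-mAID background. For this TOP2B-/- group the titles read control, while the treatment field reads auxin for 14 h. By the shared protocol this means 500 µM after 24 h of doxycycline. The names heading the counts of this group also read aux. The HCT116 controls are labelled untreated, and the names heading their counts read ctrl. The groups may therefore differ in doxycycline and auxin as well as in TOP2B, so that loss of TOP2B and of TOP2A cannot be told apart, and the libraries are called here those labelled TOP2B-/-. All cells were asynchronous by title, each group had 2 libraries, and no label states that these came from separate cultures, so p-values measure only the spread between these libraries, which may be technical. The labels do not say whether the TOP2B-/- line is a single clone.

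Cytosolic acetyl-CoA, the carbon source of fatty acids, is made from citrate by ATP citrate lyase (ACLY) and from free acetate by acyl-CoA synthetase short chain family member 2 (ACSS2). Acetyl-CoA carboxylase (ACACA) turns it into malonyl-CoA, fatty acid synthase (FASN) builds palmitate from both, and elongases and desaturases (ELOVL6, SCD, FADS1, FADS2) lengthen the chain and insert double bonds. Long-chain acyl-CoA synthetases such as ACSL3 couple fatty acids to coenzyme A for use in lipids. Many of these genes are textbook targets of the SREBP transcription factors, which act at promoters together with NF-Y and Sp1, and many tumour cells run the pathway at a high rate.

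Total counts were 62626875 and 36906755 reads in the DLD-1 controls, 14183633 and 10739622 after auxin, 33239768 and 36491540 in the HCT116 controls and 34743109 and 32129400 in the libraries labelled TOP2B-/-. From the median read density of 3111 genes of at least 5000 bp with little or no signal in the controls of the other cell line, evenly spread background reads were estimated at 2.24% and 9.02% of the total in the DLD-1 controls, 39.5% and 59.5% after auxin, and 0.266% to 3.04% in HCT116. Epithelial markers (EPCAM, CDH1, KRT8, KRT18, KRT19, CDX2 and VIL1) summed to between 2903 and 7208 CPM per library. CPM are counts scaled to a common library total, with TMM factors within the cell line. VIL1 was near 0 in HCT116 (0.425 CPM in the controls on average). Of the 7, 3 (KRT18, KRT19 and CDX2) were called lower after auxin, where 35% of all tested genes were. In the libraries labelled TOP2B-/- 1, CDH1, was called lower (1.66% of all). Nascent reads of the targeted genes themselves were not lost: POLR2A, of which the degron removes the protein only, had 280.9 and 179.9 CPM in the DLD-1 controls and 159.4 and 108.0 after auxin (adjusted p = 0.077, edgeR quasi-likelihood). TOP2B had 185.7 and 191.7 CPM in the HCT116 controls against 134.6 and 131.6 in the libraries labelled TOP2B-/- (log2 fold change -0.50, adjusted p = 0.027, edgeR quasi-likelihood), and TOP2A had 641.5 and 703.9 against 634.0 and 633.9 CPM (adjusted p = 0.47, edgeR quasi-likelihood). Counts over the whole span of a gene cannot show a small deletion.

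All gene positions are from the count tables on hg38. ACSS2 lies at chr20:34874963-34927966 on the plus strand, ACLY at chr17:41866917-41919022 on the minus strand and ACSL3 at chr2:222861014-222943401 on the plus strand. ACACA, the longest of the set at 321.8 kb, lies at chr17:37084992-37406811 on the minus strand and shares 16666 bp with C17orf78 on the other strand. FASN occupies chr17:82078338-82098230 on the minus strand, SCD chr10:100347015-100364831 on the plus strand and ELOVL6 chr4:110049073-110198664 on the minus strand. FADS1 (chr11:61799625-61817057, minus strand) and FADS2 (chr11:61816203-61867354, plus strand) start head to head and share 855 bp, and since no source used here says whether strand was used in counting, reads in that stretch cannot be told apart. Reads were counted over introns as well as exons.

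Promoters were read from the RefSeq table (GRCh38.p14), which holds 8 of the 9 genes and not FASN. Windows of 250 bases before to 50 bases after the start were searched on both strands for an SRE (TCACNCCAC), NF-Y (CCAAT), Sp1 (GGGCGG) and an E-box (CACGTG). In the window nearest to the start of each gene model, 0 of 8 held the SRE letters (1.13% of all 35116 windows) and 0 of 8 the E-box (7.26% of all). As these letters are rare in all windows, 0 of 8 cannot show that the genes lack such sites. NF-Y letters were found in 4 of 8 (ACSS2, ACLY, SCD and ACSL3; 34.6% of all windows) and Sp1 letters in 7 of 8, all but FADS2 (44.95% of all). The stretches before the gene models of ACSS2, ACLY and ELOVL6 are shown because these were the genes with the lowest value, the other acetyl-CoA enzyme and the gene that moved the other way in HCT116. Capitals mark NF-Y letters (CCAAT, or ATTGG on the other strand) and Sp1 letters (GGGCGG or CCGCCC). They cover chr20:34874739-34874962 (plus strand), chr17:41919023-41919272 (minus strand) and chr4:110198665-110198865 (minus strand). Matches of 1 motif may overlap each other, none of the 4 motifs contains another, and a match is a string of letters and not a measured binding site.

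ACSS2: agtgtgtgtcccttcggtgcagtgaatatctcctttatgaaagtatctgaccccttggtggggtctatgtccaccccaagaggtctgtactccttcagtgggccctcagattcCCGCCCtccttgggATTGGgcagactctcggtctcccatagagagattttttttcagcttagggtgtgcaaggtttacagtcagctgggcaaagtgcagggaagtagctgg

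ACLY: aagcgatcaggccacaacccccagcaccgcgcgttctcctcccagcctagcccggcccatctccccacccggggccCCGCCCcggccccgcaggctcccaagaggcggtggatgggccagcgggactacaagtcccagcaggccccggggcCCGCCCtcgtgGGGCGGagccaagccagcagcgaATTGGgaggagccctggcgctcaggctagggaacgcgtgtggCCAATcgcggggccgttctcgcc

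ELOVL6: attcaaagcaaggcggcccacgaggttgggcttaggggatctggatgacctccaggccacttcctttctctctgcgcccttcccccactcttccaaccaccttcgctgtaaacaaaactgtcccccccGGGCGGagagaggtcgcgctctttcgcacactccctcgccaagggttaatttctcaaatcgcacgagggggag

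The ACSS2 stretch held 1 NF-Y and 1 Sp1 match at a GC content of 52.2%, ACLY held 2 and 3 at 73.6%, and ELOVL6 held 0 and 1 at 58.7%. A further RefSeq start of ACSS2, 1649 bp into the gene model, had 3 Sp1 matches and 0 NF-Y matches in its window.

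In HCT116, the question was how nascent RNA of the pathway differed between TOP2A-mAID cells and those labelled TOP2B-/-. ACSS2 stood out among the set with a level 4.03-fold lower in the libraries labelled TOP2B-/-, while ACLY, FASN and SCD were lower by 1.56-, 1.70- and 1.43-fold. ELOVL6 was 1.25-fold higher, and FADS2 overlapped between the groups. Log2 fold changes and their standard errors (SE) are from edgeR.

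Of the acetyl-CoA enzymes, ACSS2 had 494.5 and 508.1 CPM in the controls and 125.7 and 123.2 CPM in the libraries labelled TOP2B-/- (log2 fold change -2.01, SE 0.040). Both libraries lay far below both controls, and replicates differed by 0.04 and 0.03 on the log2 scale. ACLY had 443.2 and 502.7 CPM in the controls against 310.5 and 297.0 CPM (log2 fold change -0.64, SE 0.077). Here too the groups did not overlap. The controls thus held ACSS2 and ACLY at like levels per length, at 9.46 ± 0.18 and 9.08 ± 0.81 RPKM (CPM per kilobase of gene model; mean ± SD, n = 2), with overlapping libraries. In the libraries labelled TOP2B-/- ACSS2 was at 2.35 ± 0.033 RPKM and ACLY at 5.83 ± 0.18 RPKM (n = 2).

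Along the synthesis steps, the differences were smaller than that of ACSS2. ACACA, which makes malonyl-CoA, had 294.6 and 310.7 CPM in the controls and 284.1 and 264.7 CPM in the libraries labelled TOP2B-/- (log2 fold change -0.14, SE 0.057). The groups were separate, but by less than the replicates within either group differed. FASN had 1608 and 2018 CPM against 1222 and 914.6 CPM (log2 fold change -0.76, SE 0.19). It was the most variable of the set in this line, with single-library pairings from -1.14 to -0.40 on the log2 scale, all below 0.

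Among desaturases and the elongase, SCD, which makes monounsaturated fatty acids, had 1219 and 1394 CPM in the controls and 921.4 and 899.6 CPM in the libraries labelled TOP2B-/- (log2 fold change -0.52, SE 0.078). FADS1, a desaturase of polyunsaturated fatty acids, had 93.5 and 104.3 CPM against 80.9 and 78.6 CPM (log2 fold change -0.31, SE 0.069). Both genes were lower in each library labelled TOP2B-/- than in either control. FADS2, which catalyses the step before FADS1, had 16.98 and 19.54 CPM against 19.3 and 18.7 CPM, and its groups overlapped (log2 fold change 0.06, SE 0.12). ELOVL6, which elongates palmitate, had 95.7 and 90.2 CPM against 118.4 and 113.4 CPM (log2 fold change 0.32, SE 0.053), the only gene of the 9 with both libraries labelled TOP2B-/- above both controls. ACSL3 had 455.1 and 484.8 CPM against 384.0 and 391.9 CPM (log2 fold change -0.28, SE 0.049), again without overlap.

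**Figure D1:**
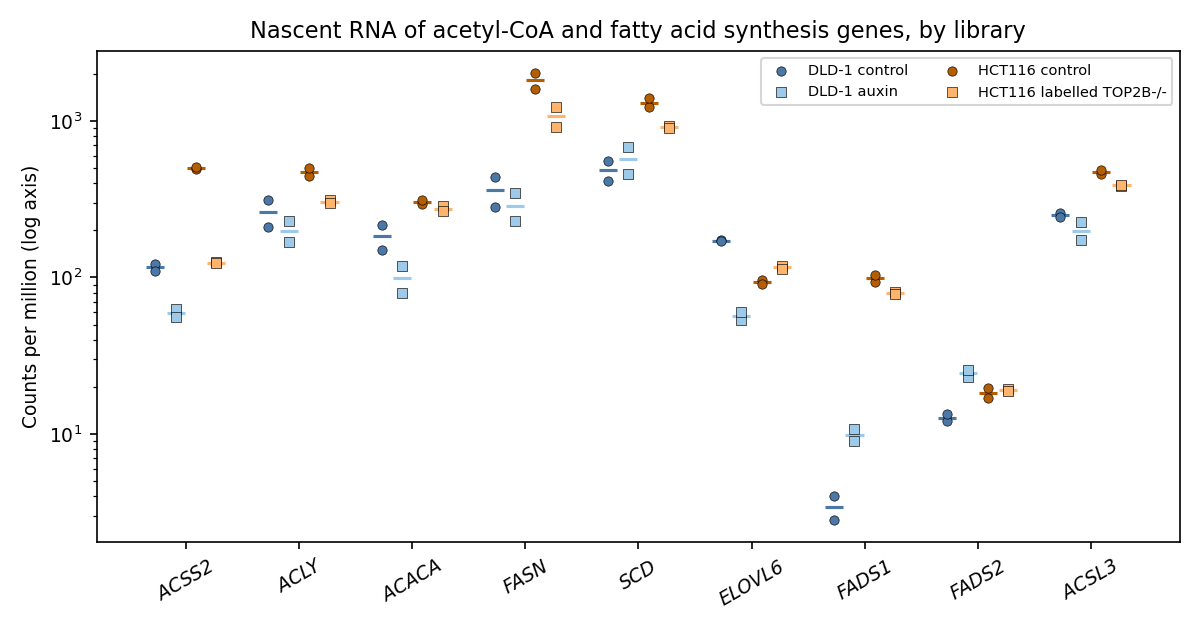
CPM (log axis) of the 9 genes in each of the 8 libraries, scaled by TMM within each cell line, with circles for controls, squares for the auxin or TOP2B-/- libraries and bars for group means (n = 2). ACSS2 falls from 494.5 and 508.1 in the HCT116 controls to 125.7 and 123.2, and most other genes shift far less in that line.

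Over the set, 7 of 9 genes had both libraries labelled TOP2B-/- below both controls (27.6% of 15273 tested genes did) and 1 had both above (27.6% of all). As the set was chosen on this contrast, a call of ACSS2 was to be foreseen. Nothing about the set is therefore read from these counts, nor from the counts and the median that follow. edgeR's quasi-likelihood test called 2 of 9 lower at an adjusted p of 0.05 (ACSS2 and ACLY, where 1.66% of all tested genes were called lower) and 0 higher (1.75% of all), with 7 of 9 under an unadjusted p of 0.05 (22.9% of all). DESeq2 called 6 lower (5.88% of 18041 genes) and 1 higher, ELOVL6 (4.38% of all). The median log2 fold change was -0.31 over the 9 genes and 0.03 over all genes tested. Without either one of the libraries labelled TOP2B-/-, edgeR called 0 genes in the whole table (2266 and 1286 at an unadjusted p under 0.05, 6 of the 9 genes among them each time; DESeq2 was not run without a library), while ACSS2 stayed between -2.07 and -1.996 over all 4 omissions of 1 library. FADS2 was at -0.04 without control 1 and at -0.01 without TOP2B-/- library 1.

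**Figure D2:**
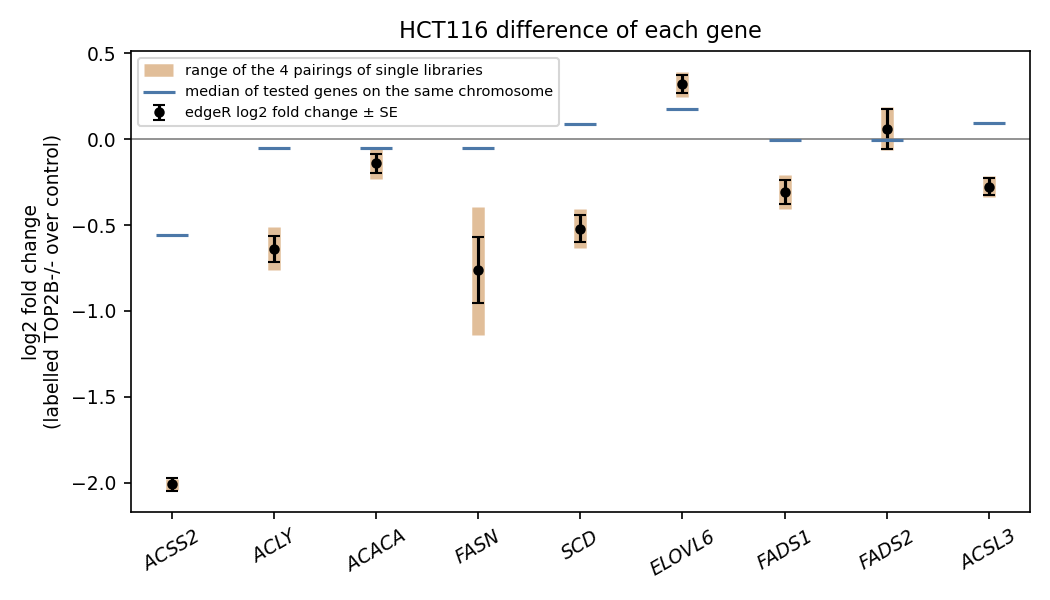
Log2 fold change of each gene in HCT116 (libraries labelled TOP2B-/- over control) from edgeR with its standard error (points and bars), the range over the 4 pairings of single libraries (shaded) and the median of tested genes on the same chromosome (blue lines). ACSS2 at -2.01 lies below its chromosome's median of -0.56, and ELOVL6 is above 0 at 0.32.

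ACSS2 lies on chromosome 20, which was low as a whole in the libraries labelled TOP2B-/-. Of 405 tested genes there, 333 (82.2%) had a log2 fold change below 0, with a median of -0.56 against 0.04 over the other chromosomes. ACSS2 was 1.45 below the median of its chromosome on the log2 scale (values by single-library pairing ran from -1.48 to -1.43). It ranked 2 of 405 on chromosome 20 after SOX18 (-2.49), which had only 0.76 CPM in the controls, and 7 among all tested genes. DNA copy number was not measured in these libraries, and its part in the level of chromosome 20 was not tested.

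The 5 tested genes on each side of ACSS2 ranged from -1.10 to 0.16 with a median of -0.63, so that ACSS2 was 1.38 below them. GGT7, on the other strand with its start 2.1 kb before that of ACSS2, was at 0.16 (mean of 16.0 CPM in the controls and 17.8 in the libraries labelled TOP2B-/-). GSS, which encodes glutathione synthetase and lies 0.47 kb past the end of ACSS2, was at -0.65 (111.7 against 71.0 CPM). Farther before ACSS2, NCOA6 was at -0.53, TP53INP2 at -1.10, PIGU at -0.57 and MAP1LC3A at -0.03. Past it, MYH7B was at -0.84, TRPC4AP at -0.75, EDEM2 at -0.61 and PROCR at -0.82. All 10 lay above ACSS2.

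**Figure D3:**
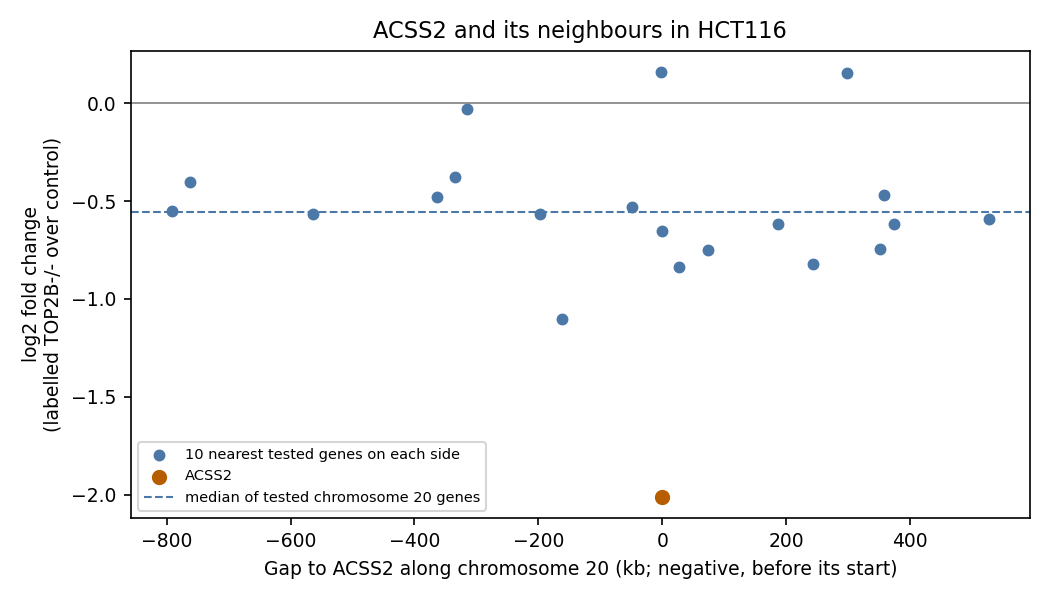
Log2 fold change in HCT116 (libraries labelled TOP2B-/- over control) of ACSS2 and of the 10 nearest tested genes on each side, against the gap to ACSS2 in kb. ACSS2 at -2.01 sits below every neighbour, of which the lowest is TP53INP2 at -1.10, and most neighbours are near the median of chromosome 20 (dashed line, -0.56).

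None of the other 8 genes lies on chromosome 20. Relative to the median of their own chromosome they were at -0.59 (ACLY), -0.09 (ACACA), -0.71 (FASN), -0.61 (SCD), 0.15 (ELOVL6), -0.31 (FADS1), 0.06 (FADS2) and -0.37 (ACSL3). Chromosome 4, which holds ELOVL6, had a median of 0.17.

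Genes of the wider pathway were taken from 8 lists with 104 genes, of which CPT1B has no gene model. In HCT116, edgeR called 5 of 101 tested genes lower (1.66% of all tested genes) and 1 higher (1.75% of all), and the median over the 101 was -0.09 against 0.03 over all genes. INSIG1, which holds SREBP precursors in the endoplasmic reticulum, had 331.5 and 376.6 CPM in the controls and 145.2 and 143.6 CPM in the libraries labelled TOP2B-/- (log2 fold change -1.29). SREBF2, which encodes SREBP2, was also lower (342.3 and 363.3 against 238.1 and 220.1 CPM, log2 fold change -0.62). The remaining 3 lower genes are of glycerolipid synthesis or turnover: LPIN1, a phosphatidate phosphatase (-0.89), AGPAT4, an acyltransferase (-0.82), and PNPLA3, a lipase and acyltransferase (-0.67). The gene called higher was ACSL5, a relative of ACSL3 (33.4 and 35.0 against 45.8 and 46.2 CPM, log2 fold change 0.43). List medians ran from -0.27 (glycerolipid synthesis) to 0.08 (acyl-CoA synthetases), with none called among acetyl-CoA sources, malonyl-CoA turnover, elongation and desaturation, NADPH supply or fatty acid oxidation in this fit. These calls too were lost without either library labelled TOP2B-/-.

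In DLD-1, the question was what became of nascent RNA of these genes once RPB1 was degraded. The rule that chose the genes names no value of this contrast, although its results were known too. ELOVL6 and ACSS2 had lower CPM after auxin, 3.04- and 1.96-fold, and ACACA 1.86-fold. In contrast, FADS1 and FADS2 had 2.88- and 1.92-fold higher CPM from low levels. Reads of ELOVL6 and ACACA were at about the background density after auxin, so the sizes of their folds are not reliable. ACLY, FASN, SCD and ACSL3 did not pass the test. CPM is a share of the library, and reads in the auxin libraries were fewer and included far more background, so these are changes relative to other genes and not of absolute output; fewer transcribing cells and less RNA per cell cannot be told apart.

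ELOVL6 had 173.2 and 169.6 CPM in the controls and 53.0 and 59.8 CPM after auxin (log2 fold change -1.60, SE 0.16, adjusted p = 0.0043, edgeR quasi-likelihood). ACSS2 had 121.7 and 110.5 CPM against 62.4 and 55.7 CPM (log2 fold change -0.97, SE 0.16, adjusted p = 0.011). ACACA had 217.3 and 150.2 CPM against 118.6 and 78.9 CPM (log2 fold change -0.90, SE 0.30, adjusted p = 0.048). None of these 3 overlapped between groups, although the ACACA libraries spread widely within each.

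FADS1 had 2.82 and 4.03 CPM in the controls and 8.996 and 10.68 CPM after auxin (log2 fold change 1.52, SE 0.36, adjusted p = 0.024, edgeR quasi-likelihood). FADS2 had 12.0 and 13.4 CPM against 23.3 and 25.7 CPM (log2 fold change 0.94, SE 0.22, adjusted p = 0.024). These had the lowest levels of the set in the DLD-1 controls, and the counts behind FADS1 were 137 and 123 reads in the controls and 155 and 147 reads after auxin. The raw reads of FADS1 thus hardly differed while the library totals did.

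The other 4 genes stayed within the test's threshold. ACLY had 310.9 and 211.2 CPM in the controls and 229.1 and 167.8 CPM after auxin (log2 fold change -0.40, SE 0.28, adjusted p = 0.25, edgeR quasi-likelihood). FASN had 439.8 and 283.2 CPM against 345.6 and 230.0 CPM (-0.33, SE 0.32, adjusted p = 0.39). SCD had 550.8 and 412.6 CPM against 681.5 and 456.2 CPM (0.24, SE 0.28, adjusted p = 0.48). For these 3 genes the groups overlapped. ACSL3 had 256.5 and 242.0 CPM against 224.3 and 172.6 CPM (-0.33, SE 0.19, adjusted p = 0.18), with both auxin libraries below both controls.

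In all, 3 of 9 genes were called lower and 2 of 9 higher, where 35.0% of 17625 tested genes were called lower and 32.2% higher, so the counts are close to the background. The median log2 fold change was -0.33 over the 9 genes against -0.06 over all. The call of ACSS2, FADS1 and FADS2 was lost without auxin library 1 (log2 fold changes -0.96, 1.74 and 1.11) and without auxin library 2 (-0.90, 1.40 and 0.87). That of ACACA was also lost without control 1 (-0.61), besides without auxin library 1 (-1.12) or 2 (-0.64). ELOVL6 stayed between -1.69 and -1.42 over the 4 omissions. It had only 1.25 and 0.98 times the background density after auxin, so the size of this fold is not reliable. With library totals alone as the scaling, the median of all genes moved to 0.57, and 3377 genes were called lower and 7544 higher (19.2% and 42.8% of all), against 6177 and 5678 with TMM. Under that scaling ELOVL6 was at -0.96, ACSS2 at -0.34, ACACA at -0.26, FADS1 at 2.16 and FADS2 at 1.58, and ACLY (0.25), FASN (0.31) and ACSL3 (0.31) turned sign.

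**Figure D4:**
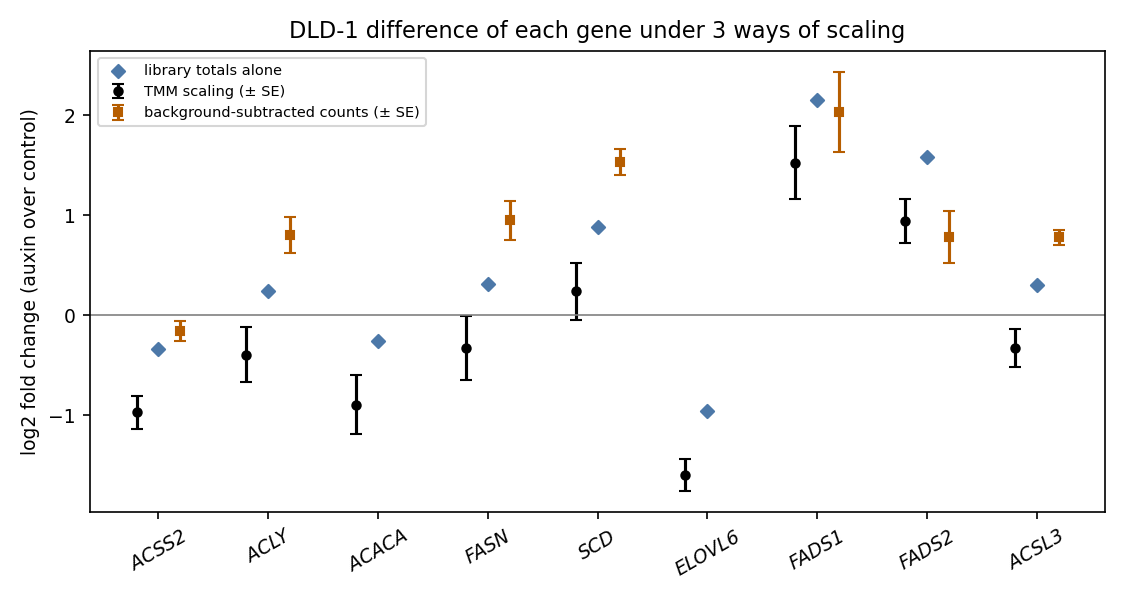
Log2 fold change of each gene in DLD-1 (auxin over control) with TMM scaling (black, ± SE), with library totals alone (blue) and from background-subtracted counts (orange, ± SE). ELOVL6 and ACSS2 are below 0 wherever they have a value and FADS1 and FADS2 above 0, whereas ACLY, FASN and ACSL3 change side; ACACA and ELOVL6 have no background-subtracted value because 1 auxin library was left with 0 reads.

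The height of each gene over the background differed between the groups. ACSS2 had 90.9 and 21.9 times the background density in the controls and 4.15 and 2.59 times after auxin. ELOVL6 went from 45.9 and 11.9 times to 1.25 and 0.98 times, and ACACA from 26.7 and 4.90 times to 1.30 and 0.60 times, so that these 2 long genes were at about the level of silent genes after auxin. FADS1 had 6.44 and 2.44 times in the controls and 1.83 and 1.51 times after auxin, and FADS2 9.32 and 2.75 against 1.60 and 1.23 times. The genes with the densest reads stayed well above it, with SCD at 134.7 and 63.0 times, FASN at 61.2 and 28.5 times, ACLY at 15.5 and 7.92 times and ACSL3 at 9.59 and 5.15 times after auxin.

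After subtraction of this background, 0 of 9 genes were called lower (32.1% of 14355 tested genes were) and 5 higher (27.7% of all): SCD (1.53), FASN (0.95), ACLY (0.80), ACSL3 (0.78) and FADS1 (2.04). FADS2 was at 0.78 without a call (adjusted p = 0.066, edgeR quasi-likelihood), and ACSS2 at -0.16 (adjusted p = 0.24, edgeR quasi-likelihood). ACACA and ELOVL6 were left with 0 reads in auxin library 2, so no fold is given. In DLD-1, markers of cell types that a pure culture of these cells should lack (PTPRC, CD3E, CD68, COL1A1, COL1A2, PECAM1 and ALB) rose along with the background. Their sum was 7.25 and 19.96 CPM in the controls and 138.7 and 124.6 CPM after auxin. With TMM scaling 5 of 7 were called higher (32.2% of all tested genes were), and none was at 0 in either group. In HCT116 this sum was 55.7 and 58.8 CPM in the controls and 41.8 and 37.4 CPM in the libraries labelled TOP2B-/-, with 0 of 7 called in either direction. The part of background in the calls of FADS1 and FADS2 was not tested beyond this subtraction.

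**Figure D5:**
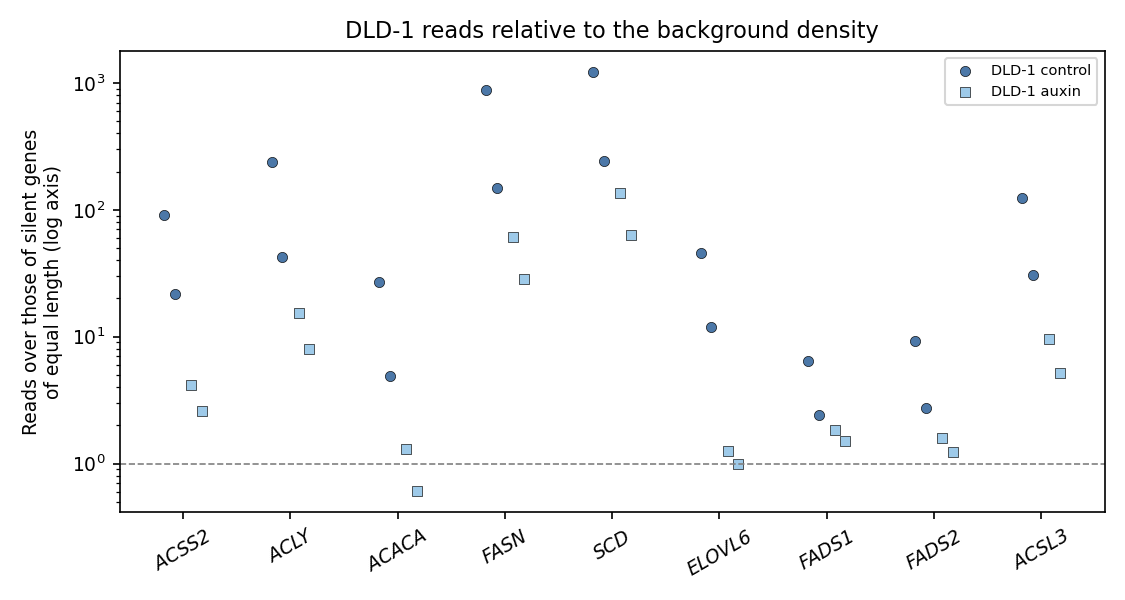
Reads of each gene in the 4 DLD-1 libraries relative to those expected from the background density over the same length (log axis, dashed line at 1). SCD and FASN stay at least 28.5 times above it after auxin, while ELOVL6 and ACACA reach it, at 0.98 and 0.60 times in auxin library 2.

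Of the wider pathway, 39 of 103 tested genes were called lower in DLD-1 (35.0% of all tested genes) and 15 higher (32.2% of all), with a median of -0.43 against -0.06 over all genes. The split followed the scaling. Library totals alone gave 18 lower (19.2% of all tested genes) and 33 higher (42.8% of all), with a median of 0.21 against 0.57 over all genes. Background subtraction gave 25 lower (32.1% of all) and 25 higher (27.7% of all) of 94 tested. Of the genes named here, TKT and MPC1 were at only -0.13 and -0.17 with library totals alone. After background subtraction TKT turned sign (0.38) and ACAA1 was at -0.11. Of the 39 lower genes, 13 had under 2 times the background density in both auxin libraries, where a fold depends on the background. Lipogenic regulators had the most lower calls, 14 of 17 with 0 higher and a median of -1.34, including SREBF1, SREBF2, SCAP and INSIG1 of the SREBP system. The log2 fold change was -2.89 for NR1H2, a sterol-sensing nuclear receptor, -2.38 for PPARG, a nuclear receptor of lipid storage, and -2.10 for MLX, a partner of the glucose-responsive factor MLXIPL. After auxin NR1H2 had 0.90 and 0.79 times and PPARG 0.95 and 0.87 times the background density, so the sizes of these folds are not reliable, while MLX had 3.79 and 2.15 times. With library totals alone 9 of 17 were called lower (19.2% of all tested genes were) and 0 higher (42.8% of all). After background subtraction 8 of 16 were called lower (32.1% of all) and 0 higher (27.7% of all). For this list 2 genes were called without auxin library 1 and 4 without auxin library 2.

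Of NADPH supply, 2 of 8 genes fell and 0 rose with TMM scaling, whereas 1 was called lower and 3 higher with library totals alone, and 1 lower and 5 higher after background subtraction (median 0.98). ME1, malic enzyme, had 1191 and 1120 CPM in the controls and 272.1 and 226.0 CPM after auxin (log2 fold change -2.21, SE 0.21, adjusted p = 0.0042, edgeR quasi-likelihood), and TKT was at -0.76. Of acetyl-CoA sources, 4 of 13 fell, among them PDHB of pyruvate dehydrogenase (-1.98) and the mitochondrial pyruvate carrier subunit MPC1 (-0.80), and 2 rose, ACSS3 (2.49) being the larger with 0.89 to 1.04 times the background density in all 4 libraries. That list had 1 lower and 5 higher with library totals alone, and 1 and 6 after background subtraction. Of malonyl-CoA turnover, 4 of 5 fell, including MCAT (-2.02, at 0.77 and 0.50 times the background density after auxin) and ACSF3 (-1.62) of mitochondrial fatty acid synthesis, and OLAH rose (2.75) at 0.95 to 1.43 times the background density, against 3 lower and 1 higher with library totals alone and 3 and 0 after background subtraction. Glycerolipid synthesis had 5 of 14 lower and 0 higher (AGPAT3 -1.68, LPIN3 -1.28, AGPAT4 -1.12). It had 1 and 1 with library totals alone and 5 and 1 after background subtraction. After auxin AGPAT3 had 1.72 and 1.31 times, AGPAT4 1.07 and 1.08 times and ACSF3 1.34 and 1.10 times the background density. The sizes of these folds are therefore not reliable. Over all tested genes, TMM scaling gave 35% lower and 32.2% higher, beside the counts of each list here. These shares were 19.2% and 42.8% with library totals alone, and 32.1% and 27.7% after background subtraction.

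The other 3 lists had most of the higher calls, many of them on genes near the background density. With TMM scaling 35% of all tested genes were called lower and 32.2% higher. These shares were 19.2% and 42.8% with library totals alone, and 32.1% and 27.7% after background subtraction. Nothing particular to these lists is read from the counts. Elongation and desaturation had 3 of 15 lower and 5 higher (ELOVL3 2.87, FADS6 2.54, ELOVL5 2.46). Acyl-CoA synthetases had 5 of 13 lower and 4 higher (ACSBG1 2.66, SLC27A6 2.35, ACSL6 2.20), and fatty acid oxidation 2 of 18 lower and 3 higher (ACADL 2.57, CPT1C 2.06; ACAA1, of peroxisomal oxidation, was lower at -1.27). With library totals alone these 3 lists had 1 lower and 9 higher, 2 and 6, and 0 and 8, and after background subtraction 1 and 4, 5 and 0, and 1 and 9. Of the 15 pathway genes called higher, 10 had under 2 times the background density in all 4 libraries. Without auxin library 1 the 8 lists had between 0 and 2 calls each, and without auxin library 2 between 0 and 4.

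Controls of both lines were set side by side as a description, since the lines come from separate tables and differ in the tagged gene. Per length, FASN and SCD led in both lines, at 18.2 ± 5.6 and 27.0 ± 5.5 RPKM in DLD-1 and at 91.1 ± 14.6 and 73.3 ± 6.9 RPKM in HCT116 (mean ± SD, n = 2). In DLD-1 controls ACLY (5.01 RPKM), ACSL3 (3.03), ACSS2 (2.19), ELOVL6 (1.15), ACACA (0.571), FADS2 (0.249) and FADS1 (0.196) followed, and no neighbours in this order overlapped. In HCT116 controls ACSS2 (9.46 RPKM) and ACLY (9.08) overlapped, as did ACSL3 (5.70) and FADS1 (5.67), ahead of ACACA (0.940), ELOVL6 (0.621) and FADS2 (0.357). ACSS2 moved from rank 3 in the HCT116 controls to rank 6 in the libraries labelled TOP2B-/-, where FASN (53.7 RPKM) and SCD (51.1) overlapped. After auxin in DLD-1, FADS1 (0.564 RPKM) and FADS2 (0.478) stood above ELOVL6 (0.377) and ACACA (0.307), which overlapped. All of these were near the background density in the auxin libraries, at 0.60 to 1.83 times, so this order is not reliable.

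FADS1 differed most between the lines, at 28.9- to 35.7-fold higher in HCT116 depending on the scaling (3 scalings). ACSS2 was 4.32- to 5.35-fold, FASN 5.01- to 6.23-fold and SCD 2.71- to 3.37-fold higher in HCT116. ACLY, ACACA, ACSL3 and FADS2 were between 1.44- and 2.33-fold higher there. ELOVL6 alone of the 9 was higher in DLD-1, by 1.49- to 1.84-fold. No background was subtracted for these ratios. In the DLD-1 controls FADS1 had only 6.44 and 2.44 times and FADS2 9.32 and 2.75 times the background density. The sizes of the ratios of FADS1 and FADS2 are therefore not reliable. The lines did not overlap for any of the 9 genes. The share of all genes that separate the lines was not taken, so nothing about this set is read from that count.

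Likeness to ACSS2 was measured as the root mean square difference of log2 CPM, each gene centred on its mean over the 8 libraries, among 8989 genes with a mean of at least 10 CPM in each line. The closest were MVD (0.32), an enzyme of cholesterol synthesis, ARFGAP1 (0.35), PER1 (0.37), ADRM1 (0.42) and HELZ2 (0.42). Of these, ARFGAP1, ADRM1 and HELZ2 lie on chromosome 20, which held 405 of the 15273 genes tested in HCT116. As that chromosome was low as a whole in the libraries labelled TOP2B-/-, nothing further is read from this. MVD, on chromosome 16, averaged 105.2 CPM in the HCT116 controls and 42.9 CPM in the libraries labelled TOP2B-/-, with 24.97 CPM in the DLD-1 controls and 15.0 CPM after auxin. Among the other genes of the set, FASN came nearest (0.60, rank 97), then ACLY (0.69), ACACA (0.72), ACSL3 (0.73) and SCD (0.74), with ELOVL6 (1.15) and FADS2 (1.26) far behind. FADS1 was under the level needed in DLD-1. The 8 points come from 2 lines and 4 groups, so the measure describes these libraries and carries no test.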

How the data were processed

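The 8 factory-seq libraries of 2 cell lines (2 per group) hold nascent RNA. The authors deposited raw counts per gene model, 1 table for each line; the submitters' processing notes name STAR, DESeq2 and hg38. The deposited tables of comparisons, which hold DESeq2 fold changes, p-values and normalised values for selected genes, were not used. From the counts, edgeR 4.0.16 (R 4.3.3; filterByExpr, TMM, quasi-likelihood test, Benjamini-Hochberg adjusted p of 0.05 over all tested genes) was fitted within each line, with 2 residual degrees of freedom. DESeq2 1.42.0 was an alternative. Scripts were tested on simulated data. Background density was the median over 3111 genes of at least 5000 bp, the lowest 20% of each chromosome in the controls of the other line, and the expected reads were subtracted in an alternative. Members, lists and named genes (members, the 3 largest called changes per list, 5 neighbours of ACSS2 on each side, the 5 genes most like ACSS2, targeted genes) were chosen with earlier results of these data known. Total counts ranged from 10739622 to 62626875. Promoters came from RefSeq GRCh38.p14. Libraries with fewer reads and more background give less certain values.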

Additional observations from a re-analysis of the deposited data

How the results depend on the processing

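In DLD-1, 11855 genes were called. Leaving out 1 library gave 2393 to 12732 calls (2393 without auxin library 1, 3165 without auxin library 2), with 1 to 3 of the 9 genes lower and 0 to 2 higher. Library totals alone left 1 of the 9 lower (19.2% of all tested genes were). Background subtraction left 0 lower (32.1% of all) and 5 higher (27.7% of all). The sign turned for ACLY with library totals (0.25), upper-quartile scaling (0.082) and background subtraction (0.80), for FASN (0.31, 0.15 and 0.95, and also 0.049 with a mean of at least 5 CPM and 0.021 without control 1, in a range of -0.61 to 0.021 over omitted libraries) and for ACSL3 (0.31, 0.15 and 0.78, and 0.055 with at least 5 CPM). Upper-quartile scaling called 4038 lower and 7070 higher. With the replicate block, 12963 genes were called. Replicate numbers were not taken as pairs: with 2 pairs in each line, same-numbered libraries deviated together in DLD-1 (correlation 0.56) and apart in HCT116 (-0.82).

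In HCT116, 521 genes were called. The number was 1851 with DESeq2, 1221 with at least 5 CPM, 0 with the replicate block (2177 at an unadjusted p under 0.05), 1808 with crossed replicate numbers (chosen after seeing the data), 5 with all 8 libraries in one fit, 2289 after background subtraction and 229 outside chromosome 20. Leaving out 1 library gave 0 to 2519 (2519 without control 1). Scaling from genes outside chromosome 20 called 413 lower and 247 higher, against 253 and 268. Of the 9 genes, 6, 5, 0, 5, 1, 6 and 0 were lower in the same order (the last of 8, since ACSS2 is left out outside chromosome 20). Over all genes, 1060 of 18041, 657 of 11174, 0 of 15273, 1141 of 15273, 1 of 17800, 1135 of 13573 and 71 of 14868 were lower. Without a count filter 1 of the 9 was lower (205 of 18041 over all). With DESeq2, after background subtraction and with crossed numbers 1 of the 9 was higher (791, 1154 and 667 over all). As the set was chosen on this contrast, nothing is read from these counts. FADS2 turned sign without control 1 (-0.044) and TOP2B-/- library 1 (-0.01), in a range of -0.044 to 0.10. Against 10 neighbours on each side ACSS2 was at -1.44, compared with -1.38. The causes were not tested. All other directions of the 9 genes were kept: 105 of their values in HCT116 and 85 in DLD-1 kept both direction and call. Depth and background limit the DLD-1 auxin libraries most.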
